A study of Homo sapiens with 9 samples.

Results

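The cathepsins are proteases that work in the acid of the lysosome, and 10 genes of this system were followed in the deposited counts: CTSB, CTSC, CTSD, CTSH, CTSK, CTSL and CTSZ, the further lysosomal proteases LGMN and TPP1, and CST3, whose product cystatin C inhibits cysteine cathepsins. They were chosen by name, with earlier results of these data known, and each matched a single gene ID of the 63187 in the table. Counts of these genes set beside shares over all genes are therefore a description. BEAS-2B, an immortalized human bronchial epithelial cell line, was kept untreated as the control or given aerosol condensate for 24 h, diluted to 2% (v/v). The PG/VG condensate came from the carrier liquid of propylene glycol and vegetable glycerin, and the EC condensate from a Virginia tobacco-flavored liquid with 18 mg/mL nicotine. Poly-A RNA was sequenced in 9 libraries, 3 per condition, numbered 2, 3 and 4 as both replicate and batch. Since EC carries nicotine and flavor together, the parts of these in a difference between EC and PG/VG cannot be told apart. Nor can that of the ratio of propylene glycol to glycerol, which the sources used here do not give for the EC liquid. All libraries came from a single immortalized line, and the methods describe those of a condition as biological replicates.

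Lysosomal proteases are made as inactive precursors, tagged with mannose 6-phosphate and carried by receptors to the lysosome, where acid and other proteases activate them. Most cathepsins are cysteine proteases, while cathepsin D is an aspartic and TPP1 a serine protease. In airway epithelium they break down proteins delivered by endocytosis and autophagy, and some are also secreted. Many lysosomal genes carry an E-box-like element bound by TFEB and related factors, which promote the making of lysosomes.

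Each library held between 16168260 and 24917838 counts on genes, and the 10 genes together took 0.159% to 0.197% of them. All 10 were among the 16030 genes that reached 10 counts in 3 or more libraries, on which every test ran. CTSK had only 24 to 41 counts per library and the other 9 genes 378 to 19652. Levels are given in CPM, which scales counts to library sizes corrected by TMM, and differences as log2 fold changes (LFC) from an edgeR quasi-likelihood fit with the batch as a term. A gene counted as a DEG when its p-value, adjusted by Benjamini-Hochberg over all genes tested, was under 0.05. The batch term, which tests any difference among the 3 batches, was called for 34.3% of all genes. For 29.1% of all genes the batch 4 libraries did not overlap those of batches 2 and 3. Results that rest on batch 4 are given with and without it.

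Epithelial identity rested on keratins. KRT8 lay between 752 and 1174 CPM, whereas EPCAM had 11 to 47 counts per library, CDH1 3 to 31 and KRT5 0 or 1. KRT18, KRT7 and KRT8 were lower in EC than in the control, with LFCs of −0.46, −0.45 and −0.25, while EPCAM, CDH1 and KRT19 had LFCs of 0.57, 0.36 and 0.18 and were not called. The 7 epithelial markers summed to 1776 to 2844 CPM in the control, 1721 to 2737 in PG/VG and 1459.6 to 2287 in EC. Of 6 leukocyte and macrophage markers, AIF1 and CD163 were at 0 in every library and PTPRC, the pan-leukocyte marker, had 0 to 2 counts. The summed level of the 6 was 3.77 to 5.64 CPM in the control, 6.18 to 8.15 in PG/VG and 3.77 to 9.66 in EC, most of it from CD14. Of 4 fibroblast markers, whose sum was 159 to 214 CPM in the control, 157 to 209 in PG/VG and 149 to 209.7 in EC, THY1 was called lower than the control in both exposures and COL1A1 higher in PG/VG (LFC 0.26), with an LFC of 0.17 in EC that was not called. The 2 endothelial markers summed to 0.246 to 1.04 CPM over all libraries. The part of these shifts in the results below was not tested.

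The DEGs among the 10 in EC vs. control were CTSL, CTSD and CTSZ, and the 100 bases before their RefSeq start sites are shown because the E-boxes of TFEB targets are mostly found there. CTSL lies at chr9:87724051-87731469 on the plus strand with 8 exons in its canonical transcript, CTSD at chr11:1752752-1764573 on the minus strand with 9, and CTSZ at chr20:58985686-59008238 on the minus strand with 6 (GRCh38). The windows, from GRCh38.p14, span chr9:87726019-87726118 for CTSL, chr11:1763928-1764027 for CTSD and chr20:59007255-59007354 for CTSZ. They are written 5′ to 3′ on the strand of the gene, and capitals mark the E-box CACGTG.
CTSL: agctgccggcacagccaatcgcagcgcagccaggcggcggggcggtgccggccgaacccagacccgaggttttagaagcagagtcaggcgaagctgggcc
CTSD: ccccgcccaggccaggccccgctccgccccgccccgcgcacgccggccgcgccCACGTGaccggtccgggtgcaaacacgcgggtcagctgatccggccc
CTSZ: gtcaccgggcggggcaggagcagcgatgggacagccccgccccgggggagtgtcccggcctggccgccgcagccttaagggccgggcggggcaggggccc

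CTSD carried an E-box that begins 47 bases before the start site. Windows of 300 bases, 250 before the start and 50 after it, were at hand for 7 of the 10 genes (all but CTSB, CTSK and LGMN) and were searched on both strands for CACGTG and for the AP-1 element TGANTCA, which may share bases at their ends. The E-box was found in 1 of the 7 and AP-1 in 0. Over all 35116 windows the shares were 7.26% and 7.71%, and over 41 windows of other genes of the pathway 9 held an E-box and 3 an AP-1 element. A match is a run of letters and not a measured binding site.

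Levels of different genes were compared per kilobase of the Ensembl canonical transcript. In the control, CTSB, a cysteine protease that acts as both an endopeptidase and a carboxypeptidase, had 216 ± 31.5 CPM per kb (mean ± SD, n = 3) and the inhibitor gene CST3 212 ± 13.6, with ranges that overlapped. CTSZ, a carboxypeptidase also called cathepsin X, followed with 169 ± 6.65 CPM per kb and did not overlap with CST3. These 3 genes had the highest means on this scale. With lengths over all annotated exons CTSZ came after TPP1, LGMN and CTSL.

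The middle of the order held TPP1, which removes tripeptides from protein ends, at 59.8 ± 11.7 CPM per kb and the endopeptidase gene CTSL at 53.1 ± 16.8, which overlapped with each other. Next came CTSD at 36.3 ± 1.92, CTSC at 35.2 ± 3.68 and LGMN at 35.2 ± 1.90 CPM per kb, and no neighbors among these 3 could be ordered beyond their spread. Reads in the 62.1% of CTSD's length that overlaps other genes may not have been counted, and over its unshared 778 bases alone the level would be 95.9 ± 5.08 CPM per kb, above TPP1 with 76.7 ± 15.0 on the same basis. CTSH had 10.8 ± 0.550 CPM per kb and CTSK, best known as the collagen-degrading protease of osteoclasts, 1.05 ± 0.225, each apart from its neighbors. In PG/VG LGMN came before CTSC, and in EC also CST3 before CTSB, pairs that already overlapped in the control.

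**Figure D1:**
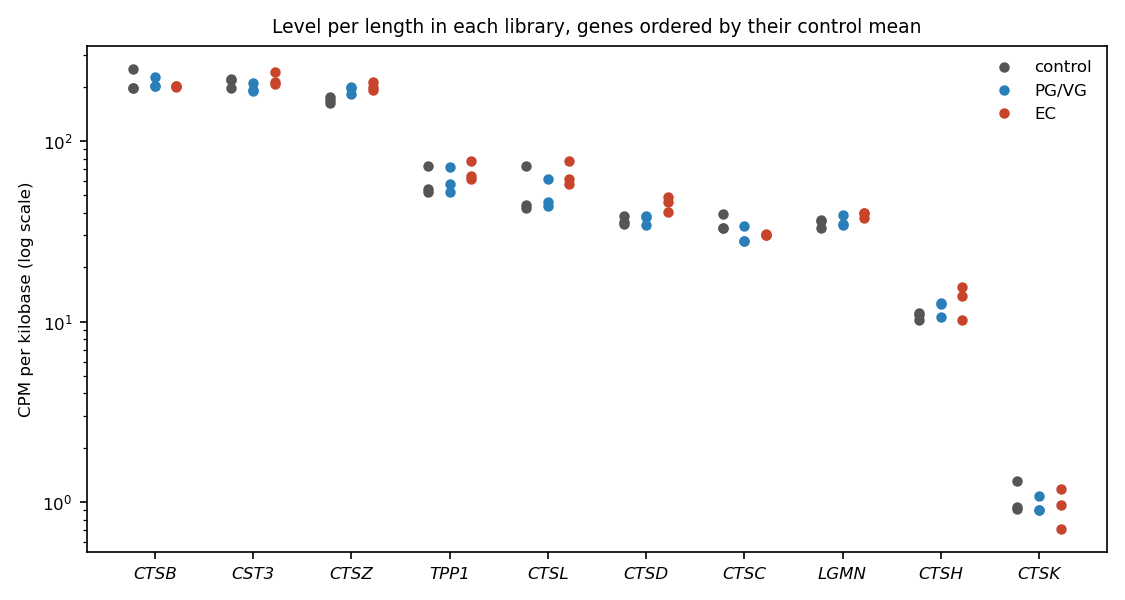
CPM per kilobase of canonical transcript (log scale) of the 10 genes in each of the 9 libraries, with genes ordered by their mean over the 3 control libraries and points colored by condition. CTSB, CST3 and CTSZ form the upper tier, and CTSK lies near 1.05 CPM per kb.

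To see which of the genes changed with the flavored, nicotine-containing condensate, EC was compared with the control. Of the 10 genes, 3 were DEGs, all of them upregulated: CTSL by 26.3%, CTSD by 24.5% and CTSZ by 18.2%. Over all genes tested 13.5% were called in this comparison, 8.07% as higher and 5.38% as lower. The median LFC was 0.17 over the 10 genes and 0.0078 over all genes tested, and 7 of the 10 had an unadjusted p under 0.05, beside 27.4% of all genes. Within batches, EC was above the control in 3 of 3 for 5 of the 10 genes, CTSL, CTSD, CTSZ, LGMN and TPP1, and below it in 3 of 3 for 1, CTSC, where the shares over all genes were 24.6% and 21.5%.

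CTSL, an endopeptidase that degrades much of the protein reaching the lysosome, measured 73.0, 70.7 and 119.8 CPM in control replicates 2, 3 and 4 and 102.3, 95.9 and 128.2 CPM in EC. The groups overlapped because control replicate 4 exceeded EC replicates 2 and 3, but within each batch EC was higher. The LFC was 0.34 (SE 0.079, adjusted p = 0.00615, edgeR), made up of within-batch differences of 0.49, 0.44 and 0.098. The call was lost without control replicate 2 (adjusted p = 0.0695) and without control replicate 3 (0.0841), and it held without the 3 batch 4 libraries, where the LFC was 0.45.

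CTSD, the main aspartic protease of the lysosome, read 71.3, 73.5 and 79.0 CPM in the control and 101.1, 83.4 and 94.0 CPM in EC. Every EC library was above every control library. Its LFC was 0.32 (SE 0.079, adjusted p = 0.0102, edgeR). Without EC replicate 2, which was the highest of the 9 libraries, the LFC came to 0.20 (adjusted p = 0.112), and without control replicate 2 the adjusted p was 0.0813. Without the batch 4 libraries the LFC stayed at 0.33 and the adjusted p was 0.0619. Of CTSD's canonical exon length, 62.1% is shared with ENSG00000250644 on the same strand and PRADX on the opposite strand, and since multi-overlapping reads were not counted, its counts leave out part of its reads. Those partners had 0 to 5 and 0 to 2 counts per library. Their own canonical lengths are shared to 100% and 66.1%, so reads there were left out too. These counts therefore do not show how strongly the shared parts of the partners were transcribed.

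CTSZ rose from 244.3, 254.6 and 264.3 CPM in the control to 318.1, 286.7 and 298.0 CPM in EC, again with no overlap between the groups. The LFC was 0.24 (SE 0.069, adjusted p = 0.0230, edgeR) and the within-batch differences were 0.38, 0.17 and 0.17. This call was the least stable of the 3. It was lost without control replicate 2 (0.17, adjusted p = 0.230), control replicate 3 (0.24, 0.120), EC replicate 2 (0.19, 0.101) or EC replicate 4 (0.23, 0.0953), and without the batch 4 libraries (0.26, 0.0546). Without the batch term, 0 of the 10 genes were called in this comparison, where only 0.0998% of all genes were.

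**Figure D2:**
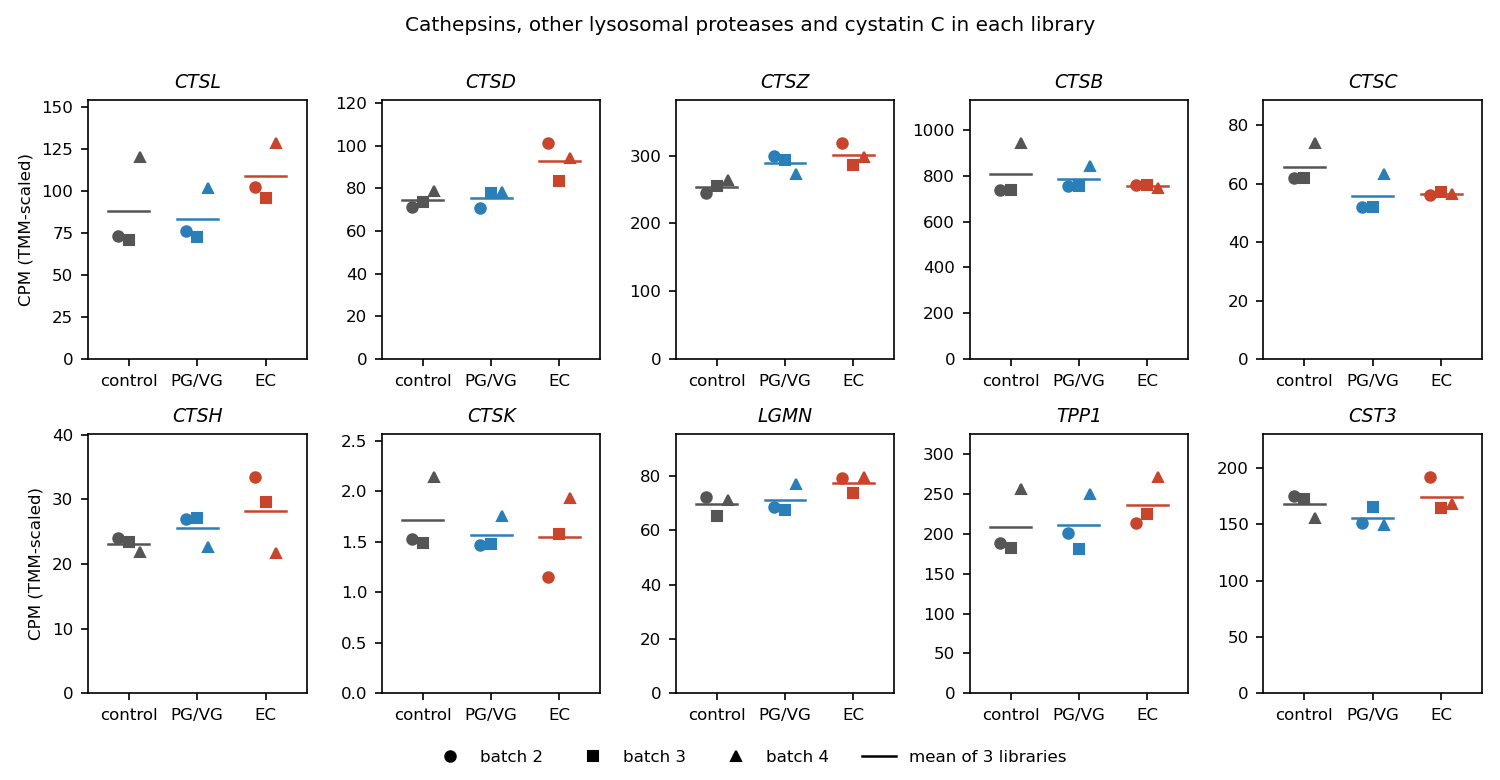
CPM of each of the 10 genes in the 9 libraries, on a linear axis from 0 for each gene. Points are libraries, their shape gives the batch, and lines are means of 3 libraries. The EC points of CTSD and CTSZ lie above all of their control points, and the batch 4 triangles of CTSL and TPP1 lie above the other 2 points of each condition.

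The other proteases did not pass the threshold in EC vs. control by edgeR with the batch term. After ComBat-Seq adjustment and DESeq2, the tools that the paper used, CTSC, CTSH and TPP1 were also called, beside 19.2% of all genes. With library size as the only scaling CTSH, LGMN and TPP1 were also called, beside 14.7% of all genes. CTSH, an aminopeptidase known for its part in processing surfactant protein precursors, had 24.1, 23.4 and 21.8 CPM in the control and 33.4, 29.5 and 21.8 CPM in EC, with an LFC of 0.28 (SE 0.097, adjusted p = 0.0608, edgeR). The EC libraries of batches 2 and 3 were above all control libraries while that of batch 4 equaled its control, with within-batch differences of 0.47, 0.34 and −0.00063. CTSH was called without control replicate 4 (0.36, adjusted p = 0.0319), EC replicate 4 (0.37, 0.0307) or the batch 4 libraries (0.39, 0.0334).

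TPP1 had 188.6, 181.9 and 255.5 CPM in the control and 213.9, 224.7 and 270.4 CPM in EC (LFC 0.19, SE 0.069, adjusted p = 0.0705, edgeR). It was higher within each batch, although the groups overlapped. Of TPP1's canonical exon length 22.1% is shared with other genes, which had 0 or 1 counts per library. Reads in shared bases were left out for those genes too, so such counts do not show how strongly the shared bases were transcribed. The shared part is 100% of the canonical length for ENSG00000285338 and 31.9% for ENSG00000255680. LGMN, the asparaginyl endopeptidase legumain that activates several cathepsins, had 72.5, 65.4 and 71.1 CPM in the control and 79.3, 73.8 and 79.5 CPM in EC (LFC 0.16, SE 0.072, adjusted p = 0.166, edgeR). Its groups did not overlap.

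CTSC, a dipeptidyl peptidase that activates granule serine proteases, was the only gene of the 10 whose EC libraries all lay below the control libraries. It had 61.8, 62.0 and 73.8 CPM in the control and 56.2, 57.2 and 56.6 CPM in EC. The LFC was −0.21 (SE 0.078, adjusted p = 0.0772, edgeR), with within-batch differences of −0.14, −0.12 and −0.38. Without EC replicate 4 it was −0.14 (adjusted p = 0.335), and without the batch 4 libraries −0.14 (0.318). Groups did not overlap for 4 of the 10 genes, CTSD, CTSZ, LGMN and CTSC, where over all genes tested this share was 17.3%.

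CTSB, the cathepsin gene with the highest mean CPM, was nearly level in batches 2 and 3 under every condition. It had 737.4, 737.4 and 940.8 CPM in the control and 757.2, 757.4 and 745.9 CPM in EC, with an LFC of −0.086 (95% interval −0.24 to 0.066). In batches 2 and 3 the differences were 0.038 and 0.039, and in batch 4 −0.34. Without the batch 4 libraries the LFC was 0.024. CST3 had 175.6, 172.7 and 155.7 CPM in the control and 191.7, 164.3 and 168.2 CPM in EC, with an LFC of 0.057 (95% interval −0.092 to 0.21). CTSK had 1.52, 1.49 and 2.14 CPM in the control and 1.15, 1.57 and 1.93 CPM in EC, and with its few counts the 95% interval of its LFC ran from −0.68 to 0.38.

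**Figure D3:**
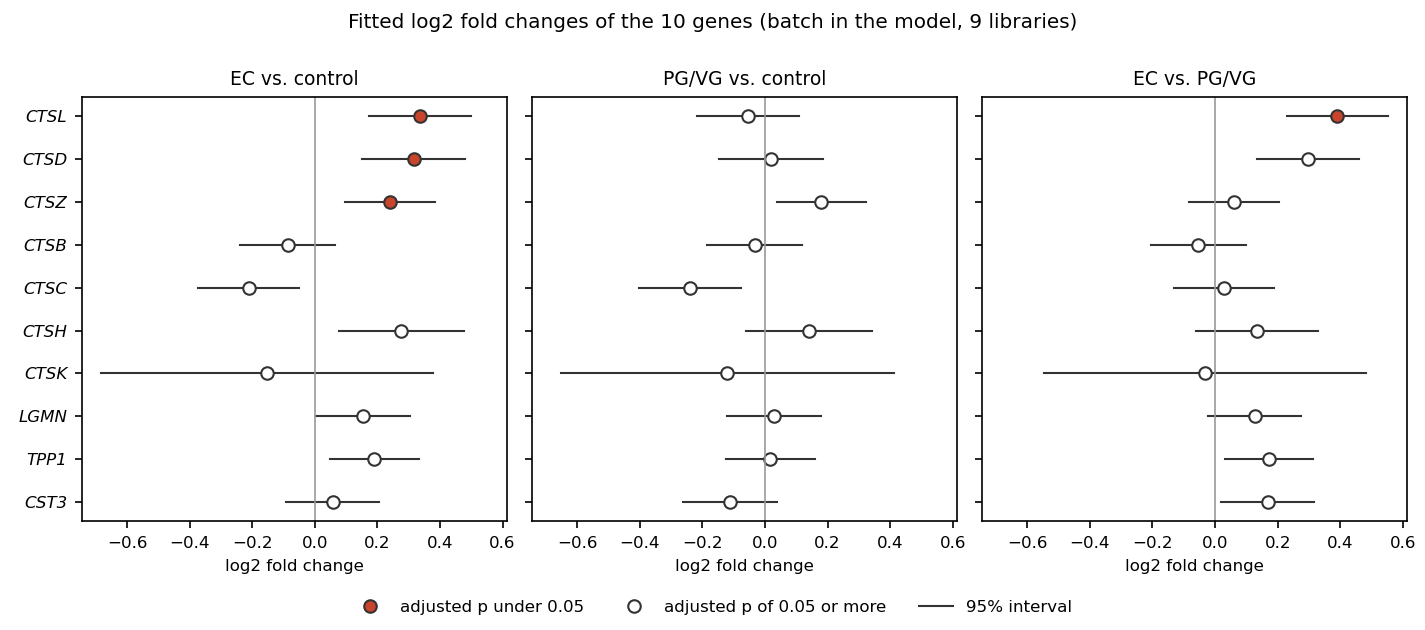
Fitted LFCs of the 10 genes (points) with 95% intervals (bars) for EC against the control (left), PG/VG against the control (middle) and EC against PG/VG (right), with filled points for an adjusted p under 0.05. Filled points are CTSL, CTSD and CTSZ on the left, no gene in the middle, and CTSL on the right.

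The carrier alone was then compared with the same control libraries, so both sets of LFCs share their controls. In PG/VG vs. control, 0 of the 10 genes were DEGs by edgeR and 0 by DESeq2 with the batch in the model, and 2 had an unadjusted p under 0.05, CTSC and CTSZ, beside 20.1% of all genes. Both were called when the counts were first adjusted with ComBat-Seq and then tested with DESeq2, which called 10.8% of all genes. By edgeR 4.54% of all genes tested were called, 2.63% as higher and 1.9% as lower. Within batches PG/VG was above the control in 3 of 3 for CTSH and CTSZ (2 of 10, beside 23.6% of all genes) and below it for CTSC, CTSK and CST3 (3 of 10, beside 19.9%). The median LFC was −0.0074 over the 10 genes and 0.013 over all genes tested.

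CTSZ had 299.4, 293.8 and 272.5 CPM in PG/VG, all above the control libraries, and an LFC of 0.18 (SE 0.069, adjusted p = 0.139, edgeR). It was the only gene of the 10 without overlap in this comparison, where 14.2% of all genes had none. CTSC had 51.9, 52.1 and 63.5 CPM and was lower than the control of its batch by 0.25, 0.25 and 0.22 on the log2 scale. The LFC of CTSC was −0.24 (SE 0.078, adjusted p = 0.0802, edgeR), and it was called when EC replicate 2 was left out (−0.25, adjusted p = 0.0384), a library that enters only through the shared estimates of spread and batch.

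For the other 8 genes the 95% interval of the LFC included 0. CTSL had 76.3, 72.5 and 101.4 CPM (LFC −0.054, 95% interval −0.22 to 0.11) and CTSD 70.7, 77.7 and 78.5 CPM (0.020, −0.15 to 0.19). CTSH had 27.0, 27.1 and 22.6 CPM, with an LFC of 0.14 (95% interval −0.060 to 0.34). TPP1 had 200.7, 181.2 and 249.8 CPM (0.017, −0.13 to 0.16), and LGMN 68.6, 67.6 and 77.1 CPM (0.028, −0.12 to 0.18). CTSB, with 755.8, 755.6 and 842.8 CPM, had an LFC of −0.032 (−0.18 to 0.12). CST3 was the lowest in PG/VG by its mean, with 151.4, 165.5 and 149.2 CPM and an LFC of −0.11 (−0.26 to 0.038). CTSK had 1.47, 1.48 and 1.76 CPM.

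EC and PG/VG were then set against each other, which tests directly whether the condensate of the flavored liquid with nicotine differed from that of the PG/VG liquid. CTSL was the only DEG of the 10, 31.1% higher in EC, where 0.855% of all genes tested were called, 0.555% as higher and 0.299% as lower. The LFC was 0.39 (SE 0.078, 95% interval 0.23 to 0.55, adjusted p = 0.0131, edgeR). EC was above PG/VG in 3 of 3 batches, by 0.42, 0.40 and 0.34 on the log2 scale, although the groups overlapped because PG/VG replicate 4 exceeded EC replicate 3. The call was lost without PG/VG replicate 2 (adjusted p = 0.0907), PG/VG replicate 4 (0.115), EC replicate 2 (0.0830) or EC replicate 3 (0.0599), while the LFC stayed between 0.35 and 0.46, and it held without the batch 4 libraries (0.42, adjusted p = 0.0367).

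CTSD had the next LFC, 0.30 (SE 0.079, adjusted p = 0.0782, edgeR), and was the only gene of the 10 whose EC and PG/VG libraries did not overlap, against 7.91% of all genes tested. It was called without EC replicate 3 (0.38, adjusted p = 0.0407). TPP1 with 0.17 (95% interval 0.031 to 0.31, adjusted p = 0.269) and CST3 with 0.17 (0.020 to 0.32, adjusted p = 0.312) had unadjusted p-values under 0.05, as had CTSL and CTSD, 4 of the 10 beside 12.9% of all genes. CTSZ, by contrast, had an LFC of 0.060 (−0.082 to 0.20) between EC and PG/VG, and CTSC of 0.029 (−0.13 to 0.19). The remaining LFCs were 0.13 for CTSH, 0.13 for LGMN, −0.054 for CTSB and −0.032 for CTSK (0.0018 with library size as the only scaling). EC was above PG/VG in 3 of 3 batches for CTSL, CTSD, LGMN and TPP1 (4 of 10, beside 16.8% of all genes) and below it in 3 of 3 for 0 (beside 14.6%). The median over the 10 genes was 0.13 and over all genes tested 0.0024.

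**Figure D4:**
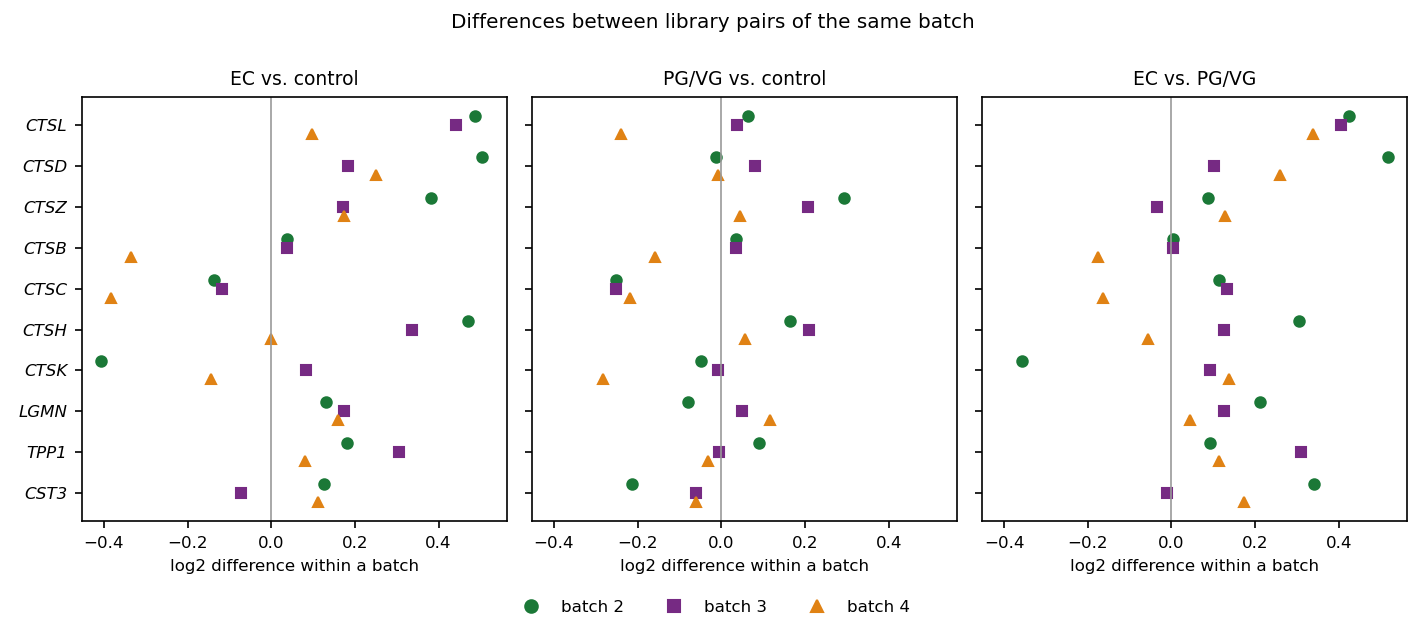
Log2 differences between libraries of the same batch (batches 2, 3 and 4 by color and shape) for the 10 genes in the 3 comparisons. For CTSL the 3 points of EC vs. PG/VG lie together, from 0.34 to 0.42, while those of EC vs. control spread from 0.098 to 0.49.

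The balance of cysteine cathepsins and the inhibitor gene CST3 was taken as the summed CPM per kb of CTSB, CTSC, CTSH, CTSK, CTSL and CTSZ over that of CST3. Another inhibitor gene, CSTB, had 171 ± 56.3 CPM per kb in the control and is not part of this ratio. The ratio was 2.03, 2.09 and 2.81 in the control, 2.56, 2.31 and 2.73 in PG/VG and 2.16, 2.40 and 2.44 in EC. The 3 groups overlapped. Control replicate 4 had the highest ratio of the 9 libraries, and it held both the most CTSB and the least CST3 of the control libraries.

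Levels also differed between batches. The batch term was called for 3 of the 10, CTSL, TPP1 and CTSH, beside 34.3% of all genes tested. Its adjusted p tests any difference among the 3 batches. The log2 differences and SEs printed beside it are of batch 4 from the mean of batches 2 and 3. CTSL averaged 83.9 and 79.7 CPM in batches 2 and 3 and 116 CPM in batch 4, a difference of 0.52 on the log2 scale (SE 0.067, adjusted p = 5.90e-06, edgeR). TPP1 averaged 201, 196 and 259 CPM, higher in batch 4 by 0.38 (SE 0.059, adjusted p = 5.85e-05). CTSH averaged 28.1, 26.7 and 22.1 CPM and was lower in batch 4 by 0.31 on the log2 scale (adjusted p = 0.0165), a call that was lost without PG/VG replicate 4 (−0.33, adjusted p = 0.0623) or EC replicate 4 (−0.20, 0.239).

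For TPP1, CTSH and CTSK every batch 4 library lay outside the range of batches 2 and 3, as for 29.1% of all genes tested. TFEB, a regulator of lysosomal genes, was lower in batch 4 by 1.03 on the log2 scale (adjusted p of the batch term = 1.08e-06, edgeR). The related MITF and TFE3 were lower by 0.39 and 0.24. In the same libraries M6PR, a mannose 6-phosphate receptor, was higher by 0.56 and CSTB, the inhibitor cystatin B, by 0.50. Of M6PR's canonical exon length 45.2% is shared with PHC1, so part of its reads may not have been counted. Further pathway genes called for the batch were CTSA, CTSS, GGA2, GNPTAB, IGF2R, NAGPA and SCPEP1, higher in batch 4, and CPQ, lower. The other tested pathway genes were not called for the batch, which was called for 34.3% of all genes. CTSD, CTSZ, CTSB, CTSC, LGMN and CST3 were not called for the batch, and neither was CTSK (adjusted p of the batch term = 0.270, edgeR). What else differed between the batches is not given in the sources used here.

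Another 42 genes of the pathway were listed by role, namely further cathepsins, other lysosomal peptidases, protease inhibitors, sorting to the lysosome, substrates or partners, and regulators, of which 29 could be tested. In EC vs. control 7 of the 29 were DEGs, 6 upregulated and 1 downregulated, beside 13.5% of all genes. The median LFC was 0.14. Without the batch 4 libraries 3 were called, without control replicate 2, control replicate 3 or EC replicates 2, 3 or 4 there were 2, 1, 4, 1 and 3, and DESeq2 with the batch in the model called 4. The shares over all genes were 7.85% without the batch 4 libraries, then 8.41%, 7.27%, 11.6%, 8.8% and 8.22%, and 10.8% by DESeq2.

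Among the further cathepsins 2 of 5 tested were called, beside 13.5% of all genes, both from low levels. CTSS, a cysteine protease best known from antigen-presenting cells, had 2.41, 2.48 and 5.12 CPM in the control, 2.83, 3.67 and 7.76 in PG/VG and 5.36, 5.32 and 6.99 in EC. Every EC library was above every control library, and the LFC of 0.88 (SE 0.19, adjusted p = 0.00412, edgeR) was called whichever library was left out. The calls of the other 6 genes were each lost without 1 library or more. CTSS was also higher in batch 4, by 0.89 on the log2 scale. CTSO, a little-studied cysteine cathepsin, had 3.30, 2.91 and 3.38 CPM in the control, 4.01, 3.67 and 4.37 in PG/VG and 4.96, 5.36 and 4.56 in EC. The 3 conditions did not overlap for CTSO, and its LFC in EC vs. control was 0.64 (SE 0.17, adjusted p = 0.0176). CTSA, protective protein and carboxypeptidase and the most abundant gene of this group, had an LFC of 0.17 and was not called.

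SCPEP1, a serine carboxypeptidase, was the only called gene of the 7 other lysosomal peptidases tested (LFC 0.32, SE 0.088, adjusted p = 0.0185, edgeR), beside 13.5% of all genes. Its groups overlapped, and its within-batch differences were 0.46, 0.48 and 0.017. The SCPEP1 call was kept in 5 of 9 fits with 1 library left out and without the batch 4 libraries. GGH, the most abundant of these peptidases, had an LFC of 0.0096. Only CSTA and CSTB of the 10 further inhibitors were abundant enough to test. CSTB was the higher of these, with an LFC of 0.12 for EC and of −0.13 for PG/VG against the control, and neither inhibitor was called. GRN, whose product progranulin is cleaved into granulins in the lysosome, was 15.9% higher in EC (LFC 0.21, SE 0.066, adjusted p = 0.0357, edgeR). The GRN call was kept in 4 of 9 fits with 1 library left out and was lost without the batch 4 libraries. PSAP, the saposin precursor, had an LFC of 0.12 and was not called.

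Of the 9 sorting genes 3 were called in EC vs. control, beside 13.5% of all genes. GNPTAB, which encodes subunits of the enzyme that starts the mannose 6-phosphate tag, was higher (LFC 0.25, adjusted p = 0.0353), and the Golgi adaptor gene GGA2 was higher (0.21, 0.0468) while its relative GGA1 was lower (−0.25, 0.0326). In the 9 fits with 1 library left out, the call was kept in 5 for GNPTAB, 4 for GGA1 and 2 for GGA2. The cation-independent mannose 6-phosphate receptor gene IGF2R had the highest mean CPM of the sorting genes. Per kilobase it was below M6PR in the control, with 36.0 against 53.0 CPM per kb. IGF2R had an LFC of 0.12 and was not called. In PG/VG vs. control 2 of the 29 genes were called, both of them sorting genes, GNPTAB (0.29, adjusted p = 0.0334) and SORT1, which encodes the sorting receptor sortilin (0.25, adjusted p = 0.0311). Beside 4.54% of all genes, both calls depended on single libraries. As 1 library was left out 0 to 2 were called, beside 1.21% to 6.84% of all genes. Without the batch 4 libraries 0 were called, beside 2.09%. The 3 regulators tested, TFEB, TFE3 and MITF, were not called, with LFCs in EC vs. control between −0.051 and 0.037.

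In EC vs. PG/VG 0 of the 29 genes were called by edgeR, beside 0.855% of all genes, and 0 by DESeq2 with the batch in the model. An unadjusted p under 0.05 was found for 3 of the 29, beside 12.9% of all genes. After ComBat-Seq adjustment DESeq2 called 2, beside 4.09% of all genes.

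**Figure D5:**
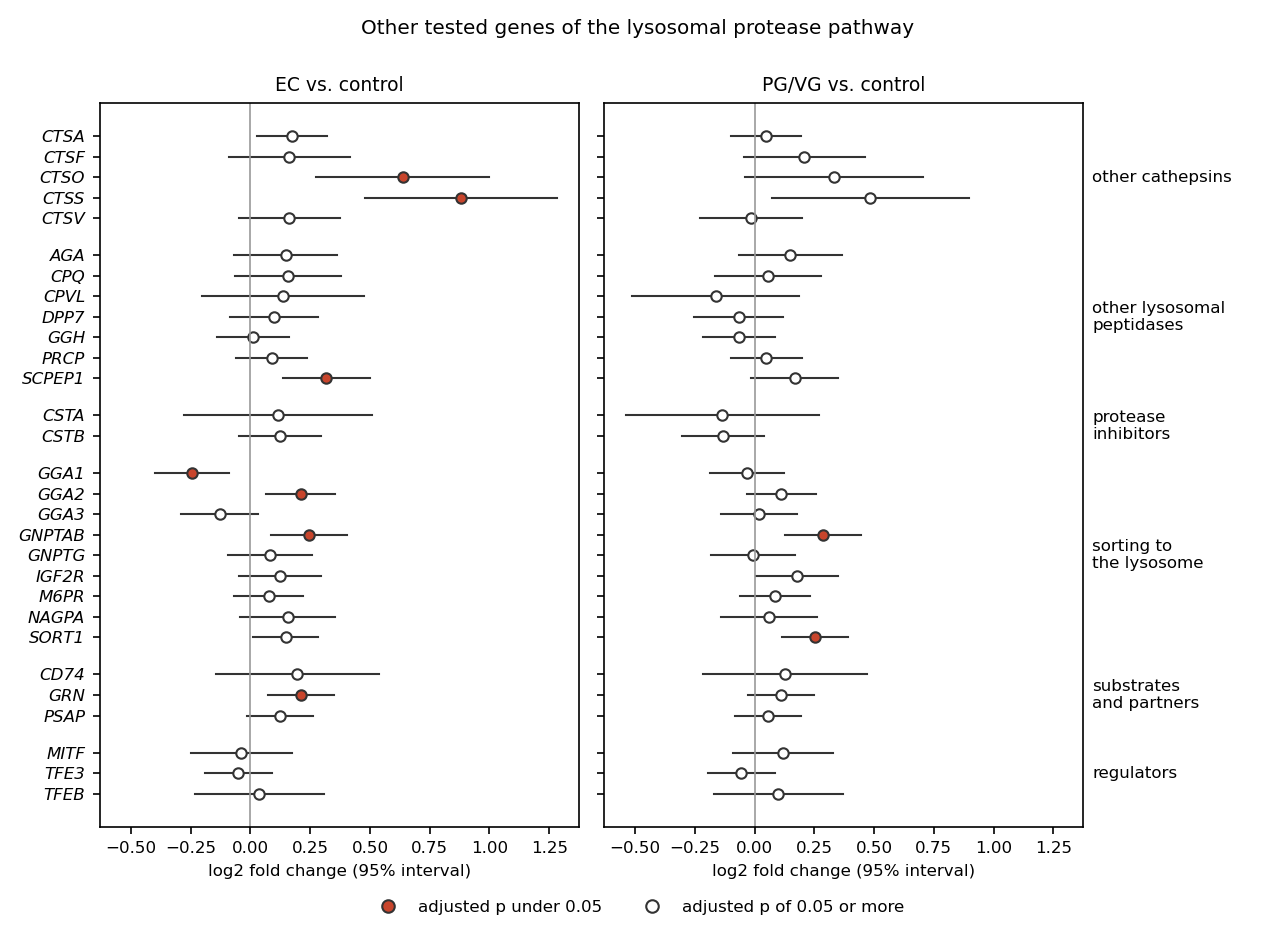
LFCs (points) with 95% intervals (bars) of the 29 other pathway genes tested, grouped by role. EC is compared on the left and PG/VG on the right with the control, and both share their control libraries. Filled points have an adjusted p under 0.05: 7 genes for EC and 2 for PG/VG.

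Genes whose pattern was most like that of each of the 10 were taken by Pearson's r of batch-centered log2 CPM over the 9 libraries. The values describe these libraries, and since the best of 16030 genes was taken over few libraries, they are high by construction. CTSL was nearest to PWWP2B (r = 0.986) and TOM1 (0.978), CTSD to TYMSOS (0.992) and LRP3 (0.978), and CTSZ to PLPP5 (0.986) and SMARCD3 (0.985). CTSC was nearest to UQCRC2 (0.987) and ESD (0.986), CTSB to DBNDD1 (0.988) and PIGBOS1 (0.978), and CTSH to PGAP3 (0.998) and HLA-DRA (0.992). LGMN was nearest to ME1 (0.990) and PLA2G4C (0.987), TPP1 to CPM, the gene of carboxypeptidase M (0.990), and SHBG (0.979), CST3 to ALG3 (0.970) and WDR45 (0.966), and CTSK to NPIPB4 (0.951) and PCDHGB3 (0.949). None of the 10 was the nearest gene of another.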

How the data were processed

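BEAS-2B RNA from 9 libraries was sequenced as paired ends. Trimming used fastp and alignment STAR on GRCh38.p12, after which the authors counted exons with featureCounts (Subread 2.0.4), leaving out reads with several alignments or several genes. The strand setting is not given in the sources used here. The values deposited are raw counts, not normalized, of 63187 genes, and all 9 columns were used. Of the gene IDs, 62666 were found in GENCODE 44, which gave positions and canonical transcript lengths.

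The 16030 genes that reached 10 counts in 3 or more libraries were fitted in R 4.3.3 with edgeR 4.0.16 (TMM, robust quasi-likelihood, condition and batch terms, all 9 libraries), with Benjamini-Hochberg adjustment over all genes tested. LFCs are not shrunken, and an SE is the LFC divided by the root of the F statistic. The batch was kept as a replicate block since the labels name it and libraries of the same number deviated together (r = 0.334 to 0.707 in 9 pairs, against −0.539 to 0.426 in 18 pairs of different numbers). Between batches 2 and 3 alone r was 0.334 to 0.399 in 6 pairs of the same number and 0.280 to 0.426 in 6 of different numbers. Per-kilobase levels use the canonical transcript, chosen after the lengths over all annotated exons were seen. The steps were tested on simulated data.

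The text names all 10 genes, every listed pathway gene called in a comparison of conditions and the gene of each role with the highest mean CPM. M6PR, MITF and the markers were added after values were seen. The genes and lists were chosen with earlier results of these data known. Alternatives were no replicate block, RLE or library size as the only scaling, no filter beyond 1 count, DESeq2 1.42.0 with the batch, ComBat-Seq (sva 3.50.0) then DESeq2, each library left out and, chosen after seeing the data, no batch 4 libraries and per-kilobase lengths over all exons or without shared bases.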

Additional observations from a re-analysis of the deposited data

Results flagged for a closer look

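CTSL differed between the 2 exposures by the direct test. Its LFC in EC vs. PG/VG was 0.39, with LFCs against the shared control of 0.34 for EC and −0.054 for PG/VG. It was higher in EC in 3 of 3 batches, and the adjusted p of 0.0131 by edgeR ranged from 1.54e-05 to 0.9999 over the alternatives, the highest without the batch term. The part of nicotine, flavor and other differences between the liquids was not tested.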

How the results depend on the processing

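Without the replicate block, 0 of the 10 genes were called for EC against the control or PG/VG, and 0 pathway genes for EC or PG/VG against the control, where 16 of all genes were called for EC and 1 for PG/VG. Library size as the only scaling gave 6, 2 and 5 of the 10 for EC vs. control, EC vs. PG/VG and the batch, in place of 3, 1 and 3, and over all genes in EC vs. control 1863 higher and 486 lower in place of 1294 and 863. The shares over all genes were 14.7%, 1.1% and 35%, in place of 13.5%, 0.855% and 34.3%. No filter beyond 1 count gave 2 for EC vs. PG/VG, beside 0.877% of the 35230 genes then tested. ComBat-Seq then DESeq2 gave 6 and 3 of the 10 for EC against the control and against PG/VG, 2 of the 10 for PG/VG against the control, and 2 pathway genes in EC vs. PG/VG, where over all genes it called 19.2%, 4.09% and 10.8% in place of 13.5%, 0.855% and 4.54%. DESeq2 with the batch gave 4 pathway genes in EC vs. control, beside 10.8% of all genes. Without the batch 4 libraries 3 pathway genes were called for EC and 0 for PG/VG against the control, beside 7.85% and 2.09% of all genes. With single libraries left out, the members called ranged from 0 to 4 for EC against the control, 0 to 1 for PG/VG against the control, 0 to 1 for EC against PG/VG and 2 to 4 for the batch, and the pathway genes called from 1 to 7 for EC and 0 to 2 for PG/VG against the control. The shares over all genes ranged from 7.27% to 13.6% for EC against the control and 1.21% to 6.84% for PG/VG against the control. They were 0.202% to 1.31% for EC against PG/VG and 24.8% to 34.5% for the batch. With lengths over all exons, 5 places of the level order changed, and without shared bases 3.

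Of 610 single-gene values under alternatives, 545 kept their direction and side of the threshold, 20 lost and 21 gained a call, and 24 changed sign, none of these a called value. Without the batch 4 libraries CTSB turned to 0.024 and 0.019 for EC and PG/VG against the control and 0.0047 in EC vs. PG/VG, and in PG/VG vs. control CTSL turned to 0.034 and LGMN to −0.033. With library size as the only scaling CTSK turned to 0.0018 in EC vs. PG/VG and CTSZ to 0.023 for the batch. With single libraries left out, these ranges crossed 0. For EC against the control they were −0.016 to 0.13 for CST3 and −0.15 to 0.0085 for CTSB. For PG/VG against the control they were −0.090 to 0.065 for CTSB, −0.045 to 0.084 for CTSD, −0.12 to 0.063 for CTSL, −0.026 to 0.076 for LGMN and −0.022 to 0.058 for TPP1. For EC against PG/VG they were −0.10 to 0.030 for CTSB, −0.020 to 0.11 for CTSC and −0.12 to 0.11 for CTSK, and for the batch −0.069 to 0.032 for CTSZ. The cause was not tested. Depth limits CTSK most, whose intervals span changes larger than those called among the other 9 genes.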
